A study of Mus musculus with 8 samples.

Results

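Zbp1 and 8 other genes of the interferon response, Ifit1, Ifit3, Isg15, Irf1, Irf7, Stat2, Bst2 and Ifih1, were followed through neural differentiation of mouse embryonic stem cells (mESCs) with and without Pcgf5. These 9 genes were taken by their symbol from the 24849 genes listed in the data. Zbp1 was chosen for its rise in the Pcgf5-/- cells at day 6. That rise was the largest among genes called by limma, without overlap of the genotypes and with a locus of at least 300 bases. The other 8 were named to ask whether interferon genes rose with Zbp1. Of the 9 genes, 5 reached the level needed for a test, a mean over 1 FPKM (mapped fragments, scaled for the exon length of the gene and for the size of the library) in at least one condition, and Ifit1, Ifit3, Irf7 and Ifih1 did not. Polyadenylated RNA came from cells of the MPI-II line (129S2/SvPas), wild type or Pcgf5-/-, all grown on feeder cells with LIF and 2 inhibitors and then moved to N2B27, a medium without serum that favours a neural fate. The 4 conditions were wild type at day 0, Pcgf5-/- at day 0, wild type at day 6 and Pcgf5-/- at day 6, with 2 biological replicates each, and PCGF5 is a subunit of Polycomb repressive complex 1. The knockout was made with TALENs in the second exon of Pcgf5 from picked colonies, so the genotype and the history of the colony cannot be told apart.

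Interferons are secreted proteins that warn cells of infection. Type I interferons bind a receptor coupled to the kinases JAK1 and TYK2, which activate STAT proteins, and a complex of these with IRF9 binds the interferon-stimulated response element (ISRE) in promoters. Interferon gamma signals through JAK1 and JAK2 to the gamma-activated site (GAS), and IRF1 is one of its direct targets. ZBP1 is a sensor of left-handed nucleic acid that is itself induced by interferon and that can start necroptosis, an inflammatory form of cell death, through RIPK3 and MLKL. Embryonic stem cells are known for a weak interferon response.

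Several of these genes have promoters with the letters of the elements through which interferon acts, and these stretches are shown to make clear what kind of gene each is. RefSeq promoter windows (build GRCm38.p6, from 250 bases before to 50 bases after the gene start) were found for 8 of the 9 genes, Zbp1 being without an entry. They were searched on both strands for the ISRE core, GAAA and GAAA with any 2 bases between them, and 6 of the 8 windows held it, against 3.99% of 27025 windows of all genes. The GAS core TTCNNNGAA was found in 2 of the 8, against 9.55% of all windows. In the sequences, written 5′ to 3′ along the strand of the gene, capitals mark the matches. Paired TTTC is the ISRE core read on the opposite strand, and matches that overlap run together. The first 5 lines show ISRE matches and the last shows the GAS match of Irf1.
Isg15, chr4:156200860-156200911, minus strand: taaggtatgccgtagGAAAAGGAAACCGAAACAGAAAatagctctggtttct
Ifit1, chr19:34640770-34640828, plus strand: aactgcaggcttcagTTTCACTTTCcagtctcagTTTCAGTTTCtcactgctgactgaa
Ifit3, chr19:34583358-34583431, plus strand: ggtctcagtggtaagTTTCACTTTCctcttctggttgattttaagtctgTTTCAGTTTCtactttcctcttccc
Bst2, chr8:71537572-71537617, minus strand: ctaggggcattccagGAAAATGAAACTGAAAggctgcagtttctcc
Stat2, chr10:128270261-128270300, plus strand: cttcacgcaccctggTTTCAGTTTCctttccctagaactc
Irf1, chr11:53769909-53769947, plus strand: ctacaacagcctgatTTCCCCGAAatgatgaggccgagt

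Isg15 held 3 ISRE matches starting 78 to 66 bases before its start, and Ifit1, Ifit3 and Bst2 held 2 each. The single match of Stat2 began 222 bases before the start, and that of Ifih1 lay 32 bases after it. The window of Irf7 held neither core. A match describes the letters of the window and says nothing of binding in these cells.

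Zbp1, on chromosome 2 (173032114-173044423 in build mm9, the build of the data), was close to silent in mESCs and was abundant in the Pcgf5-/- cells of day 6 alone. In wild-type cells it measured 0.806 and 0.414 FPKM at day 0, then 2.05 and 0.322 FPKM at day 6. In Pcgf5-/- cells it measured 0.457 and 0.105 FPKM at day 0, then 24.0 and 8.08 FPKM at day 6. Both Pcgf5-/- samples of day 6 were above all 6 other samples, and the first of them was well above the second. The 95% intervals that Cufflinks gave for single samples were 21.1 to 27.0 and 6.23 to 9.92 FPKM for Pcgf5-/- and 1.26 to 2.83 and 0.0643 to 0.642 FPKM for wild type, so the spread between replicates was wider than the counting error. The difference at day 6 was 2.91 on the log2(FPKM + 1) scale, and the ratio of mean FPKM was 13.6. Since Zbp1 was chosen by this difference, it is given without a test. Among genes called by limma, without overlap of the genotypes and with a locus of at least 300 bases, the next largest rises were Tuba3a with 2.77 and Cyct with 2.61. Leaving out single samples of day 6 moved the difference of Zbp1 between 2.18 and 3.64. At day 0, which played no part in the choice, Pcgf5-/- and wild-type samples overlapped, with a log2 difference of -0.33 ± 0.51 (SE) and a limma adjusted p of 0.801.

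**Figure D1:**
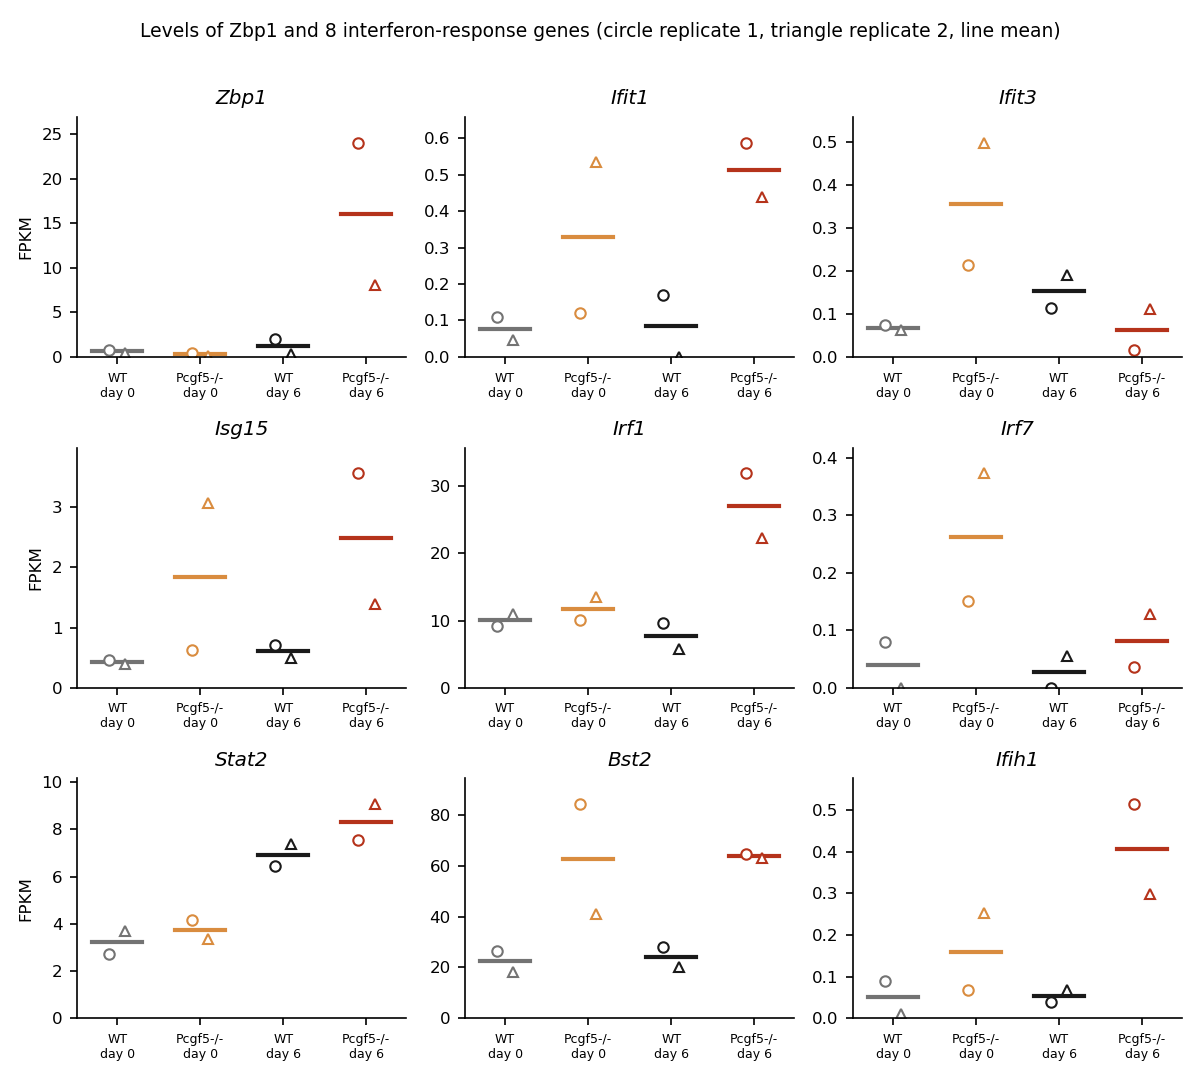
FPKM of Zbp1 and the 8 other genes in each of the 8 samples, with a panel and a linear scale for each gene, circles for replicate 1, triangles for replicate 2 and a line at the mean of each condition. Zbp1 stands out at day 6 in Pcgf5-/- cells (24.0 and 8.08 FPKM), Irf1 follows it at 32.0 and 22.3 FPKM, and Bst2 is higher in Pcgf5-/- cells at both days, while the axes of Ifit1, Ifit3, Irf7 and Ifih1 end below 1 FPKM.

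Among the other 8 genes, Irf1 and Bst2 were higher in the Pcgf5-/- cells at day 6 past the threshold, Isg15 and Stat2 did not pass it, and the other 4 were too low for the test. So 2 of the 4 genes tested were called at a limma adjusted p under 0.05, where 16.6% of the 13214 genes tested were called in either direction (9.57% higher and 7.05% lower). An unadjusted p under 0.05 was found for 3 of the 4 and for 32.7% of all genes tested. Without regard to the test, both Pcgf5-/- samples were above both wild-type samples in 6 of the 8 genes, where this held for 28.2% of all genes with a value above 0. Ifit3 had both Pcgf5-/- samples below, as 24.9% of all genes did, and the groups overlapped for Irf7. The genes were named with earlier results of these data known, so the counts describe them and are no independent evidence.

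Irf1 is a transcription factor that binds ISRE-like elements and drives antigen presentation and antiviral genes. Its locus is on chromosome 11 (53583516-53591876, mm9). At day 0 it measured 9.18 and 10.96 FPKM in the wild-type samples, against 10.1 and 13.5 FPKM without Pcgf5. At day 6 the wild-type samples measured 9.65 and 5.81 FPKM, against 32.0 and 22.3 FPKM without Pcgf5. The samples of day 0 overlapped, and at day 6 both Pcgf5-/- samples were above every other sample of the series. The log2 difference between genotypes was 1.70 ± 0.26 (SE) at day 6, with a limma adjusted p of 0.0084. From day 0 to day 6 Irf1 rose in Pcgf5-/- cells by 1.13 ± 0.26 (SE, limma adjusted p = 0.0143), and in wild type the change was -0.37 ± 0.26 (SE, limma adjusted p = 0.267). The genotype effect was larger at day 6 than at day 0 by 1.50 ± 0.37 (SE), which missed the threshold with a limma adjusted p of 0.0675, as did the other 3 genes tested, where 3.09% of all genes were called. Genes on chromosome 11 were higher in Pcgf5-/- cells as a whole, with a median log2 difference of 0.48 at day 0 and 0.38 at day 6 over 1086 genes. Less that median, the difference of Irf1 was 1.32 at day 6 and -0.28 at day 0. Without the first Pcgf5-/- sample of day 6 the limma adjusted p was 0.0596.

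Bst2, or tetherin, holds budding viruses at the cell surface. It was the most abundant of the 9 genes, on chromosome 8 (74058161-74061336, mm9). Wild-type cells had 26.5 and 18.4 FPKM at day 0 and 28.1 and 20.3 FPKM at day 6. Pcgf5-/- cells had 84.2 and 41.1 FPKM at day 0, then 64.7 and 63.2 FPKM at day 6. All 4 Pcgf5-/- samples were above all 4 wild-type samples. The log2 difference was 1.38 ± 0.32 (SE) at each day, with a limma adjusted p of 0.0248 at day 6 and of 0.0825 at day 0, and its difference between the days was 0.01 ± 0.45 (SE, limma adjusted p = 0.993). Neither genotype changed over the 6 days past the threshold, with log2 changes of 0.11 in wild type and 0.12 without Pcgf5 (limma adjusted p = 0.797 and 0.806). At day 6 the limma adjusted p was 0.117 and 0.0922 without the first and the second Pcgf5-/- sample, 0.141 without the second wild-type sample and 0.0482 without the first. The deposited FPKM of Bst2 lay outside its own Cufflinks interval in 7 of 8 samples, as was so in 7 or more samples for 7.19% of the genes tested.

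Isg15 encodes a ubiquitin-like protein that is attached to other proteins in interferon-treated cells. At day 0 it measured 0.463 and 0.392 FPKM in wild type, against 0.622 and 3.07 FPKM without Pcgf5. At day 6 the values were 0.715 and 0.5003 FPKM in wild type, against 3.57 and 1.40 FPKM without Pcgf5. Pcgf5-/- samples were above wild type at both days, and the replicates of each Pcgf5-/- condition lay further apart than the lower of them from wild type. The log2 differences were 0.85 ± 0.43 (SE, limma adjusted p = 0.361) at day 0 and 1.05 ± 0.43 (SE, limma adjusted p = 0.137) at day 6. Isg15 reached the level for the test through its Pcgf5-/- samples alone.

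Stat2, a partner of IRF9 in type I interferon signalling, differed between the days and not detectably between the genotypes. The samples of day 0 overlapped, with 2.74 and 3.70 FPKM in wild type, against 4.16 and 3.35 FPKM without Pcgf5. At day 6 it measured 6.46 and 7.40 FPKM in wild type, against 7.56 and 9.08 FPKM without Pcgf5. Stat2 rose over the 6 days by 0.92 ± 0.20 on the log2 scale in wild type (SE, limma adjusted p = 0.00596) and by 0.97 ± 0.20 in Pcgf5-/- cells (SE, limma adjusted p = 0.0086). The difference between genotypes at day 6 was 0.23, with a 95% interval of -0.23 to 0.69 and a limma adjusted p of 0.466.

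The remaining 4 genes stayed under 1 FPKM in all 8 samples. Ifit1, whose protein binds viral RNA, measured 0.588 and 0.439 FPKM in Pcgf5-/- cells of day 6, against 0.169 and 0 FPKM in wild type. At day 0 the values were 0.122 and 0.535 FPKM, against 0.109 and 0.0460 FPKM in wild type. Ifih1, the cytoplasmic sensor MDA5 of long double-stranded RNA, had 0.515 and 0.299 FPKM in Pcgf5-/- cells against 0.0400 and 0.0673 FPKM in wild type at day 6. Both genes were higher in the Pcgf5-/- samples of day 6 with no overlap, at levels of well under 1 FPKM. Ifit3, a partner of IFIT1, went the other way at day 6, with 0.0153 and 0.111 FPKM in Pcgf5-/- cells, against 0.114 and 0.192 FPKM in wild type. Irf7, the factor that amplifies type I interferon production, was highest in the Pcgf5-/- samples of day 0 (0.151 and 0.373 FPKM) and lay between 0 and 0.128 FPKM in the other 6 samples. When all genes with a value above 0 were tested, the limma adjusted p at day 6 was 0.0637 for Ifih1, 0.118 for Ifit1, 0.544 for Ifit3 and 0.697 for Irf7.

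At day 0, none of the 5 genes tested was called by limma, where 0.333% of all genes were called, and 1 of them had an unadjusted p under 0.05, as had 17.4% of all genes. In 5 of the 9 genes, namely Ifit1, Ifit3, Isg15, Irf7 and Bst2, both Pcgf5-/- samples were above both wild-type samples, against 28.1% of all genes. The second Pcgf5-/- sample of day 0 was the highest of the 4 samples of that day for Ifit1, Ifit3, Isg15, Irf7, Ifih1 and Irf1. It was below the first Pcgf5-/- sample for Bst2 and Stat2. For Zbp1 (0.105 FPKM) and, outside the 9 genes, Ifitm1 (57.1 FPKM) it was the lowest of the 4. This sample also had the highest sum of 14 feeder fibroblast markers, 734.5 FPKM against 221 to 353 FPKM in the other 3 samples of day 0, and the highest values of the interferon-induced chemokines Ccl5 (3.99 FPKM) and Cxcl10 (6.43 FPKM). At day 6 the feeder markers summed to 18.0 to 45.5 FPKM, and they were lower in both Pcgf5-/- samples than in wild type. The part of feeder cells in the values of day 0 was not tested.

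**Figure D2:**
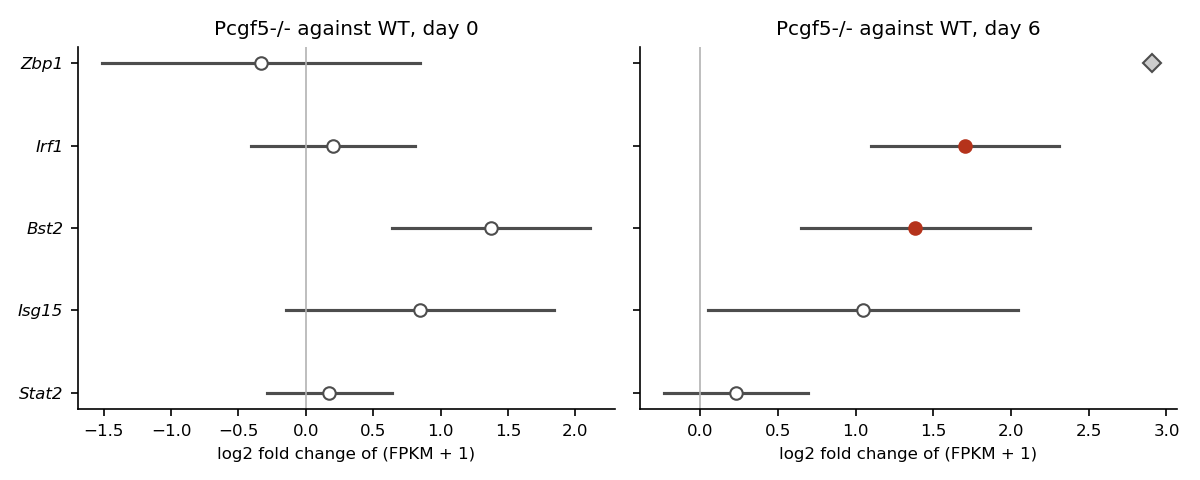
Genotype difference at day 0 (left) and day 6 (right), Pcgf5-/- against wild type, for the 5 genes that could be tested, as the log2 fold change of (FPKM + 1) with limma's 95% interval, filled where the limma adjusted p is under 0.05. At day 6 Irf1 (1.70) and Bst2 (1.38) are filled and Stat2 is at 0.23, and the diamond at 2.91 is Zbp1, shown without an interval since it was chosen by that value.

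To see whether the rise extended beyond these genes, 128 other genes of the interferon system were read by role, of which 116 had a value above 0 in some sample and 81 could be tested. At day 6, 36 of the 81 were higher in Pcgf5-/- cells and 3 were lower by limma, that is 44.4% higher, where 9.57% of all genes tested were higher. Their median log2 difference was 0.60, against 0.02 for all genes tested. Among the 116 genes, both Pcgf5-/- samples were above both wild-type samples in 70, where this held for 28.2% of all genes. Of the 81, 10 could be tested only because of their mean in the Pcgf5-/- cells of day 6. With a mean over 1 FPKM across all samples asked for instead, 34 of 72 were higher and 3 lower. This choice was made after the data were seen, and that mean still includes the Pcgf5-/- samples of day 6. Genes can thus still pass through those samples, so the choice does not remove this limit. On chromosomes 6 and 11, where genes were higher as a whole, 9 of 12 were called higher, where 25.3% of all 1729 genes tested there were, and on the other chromosomes 27 of 69, where 7.21% of all 11485 were. The number of calls depended on single samples far more than the median did: it was 3 without the first Pcgf5-/- sample of day 6, 27 without the second, 22 without the first wild-type sample and 6 without the second, while the median stayed between 0.53 and 0.65. The calls over all genes fell from 2197 to between 297 and 1173 in the same fits.

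The interferons themselves were at or near 0. Of 14 interferon genes, 11 were listed at 0 FPKM in all samples, among them Ifnb1, and Ifng, Ifnk and Ifnz did not exceed 0.264 FPKM in any sample. Of the 11 receptors and JAK-STAT genes tested, 1 was higher and 1 lower at day 6. Over all genes tested, 9.57% were higher and 7.05% lower, so these counts are near that share. Tyk2 measured 7.06 and 6.50 FPKM in Pcgf5-/- cells, against 4.06 and 4.23 FPKM in wild type (log2 difference 0.59 ± 0.16 SE, limma adjusted p = 0.042). Jak2 measured 10.2 and 11.3 FPKM in Pcgf5-/- cells, against 23.2 and 32.1 FPKM in wild type (-1.27 ± 0.19 SE, limma adjusted p = 0.00758). Of the 6 other interferon regulatory factors tested, 1 was lower at day 6, where 7.05% of all genes were, and 5 were not called. The lower gene was Irf2, which can oppose IRF1 at shared elements. It measured 1.57 and 1.58 FPKM in Pcgf5-/- cells, against 5.09 and 6.69 FPKM in wild type (-1.41 ± 0.22 SE, limma adjusted p = 0.00861). Irf9 had a log2 difference of 0.19 ± 0.23 (SE, limma adjusted p = 0.619).

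**Figure D3:**
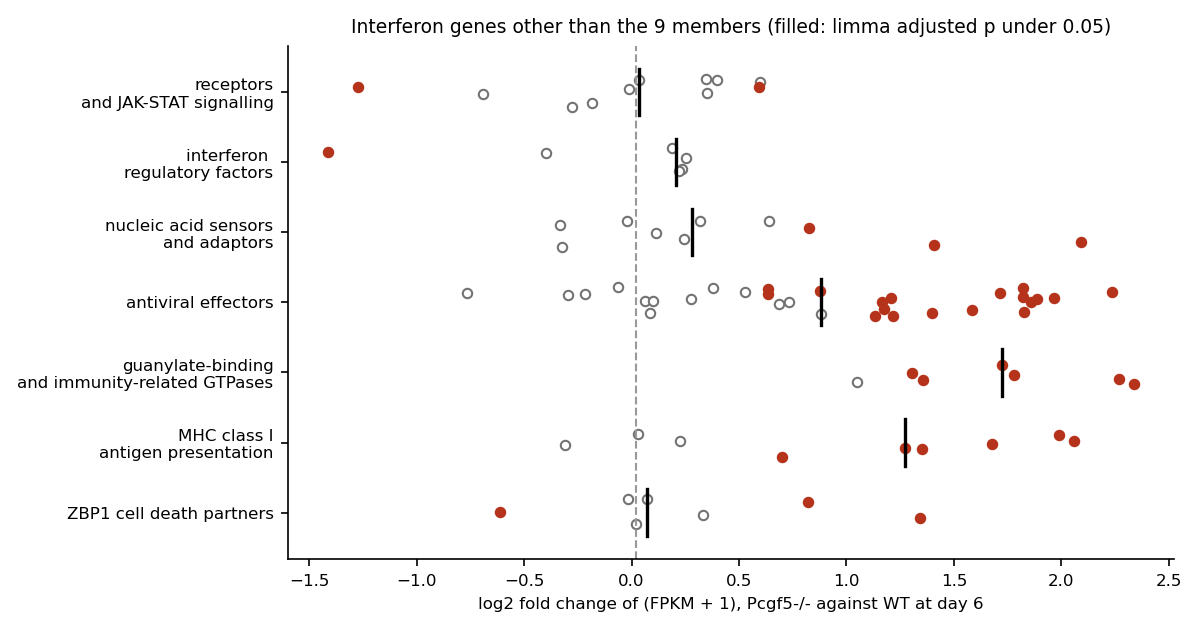
Log2 fold change of (FPKM + 1) of Pcgf5-/- against wild type at day 6 for the interferon genes other than the 9, grouped by role, with a point for each gene tested (filled where the limma adjusted p is under 0.05), a bar at the median of each group and a dashed line at the median of all genes tested (0.02). The medians are 1.72 for guanylate-binding and immunity-related GTPases, 1.27 for MHC class I genes and 0.88 for antiviral effectors, while those of receptors and JAK-STAT genes (0.03) and ZBP1 cell death partners (0.07) lie near the line.

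The guanylate-binding proteins and immunity-related GTPases, which attack the vacuoles of intracellular microbes and are strongly induced by interferon gamma, had the highest median. Of the 7 tested, 6 were higher in Pcgf5-/- cells at day 6 (Gbp2, Gbp3, Gbp7, Igtp, Irgm1 and Irgm2), against 9.57% of all genes. The median log2 difference was 1.72. Igtp, Irgm1 and Irgm2 lie on chromosome 11, whose genes were higher as a whole, with a median of 0.38 at day 6. Gbp3, Gbp7, Irgm2 and the gene not called could be tested only because of their mean in the Pcgf5-/- cells of day 6. The count was 0 without the first Pcgf5-/- or without the second wild-type sample of day 6, 4 and 7 without the other samples of that day, and 1 without a filter. Gbp2 measured 25.2 and 12.3 FPKM in Pcgf5-/- cells, against 2.62 and 2.76 FPKM in wild type (2.34 ± 0.47 SE, limma adjusted p = 0.0162). Irgm1 measured 21.8 and 9.07 FPKM against 4.06 and 0.965 FPKM (2.27 ± 0.49 SE, limma adjusted p = 0.0207). Igtp measured 8.31 and 3.53 FPKM against 1.94 and 0.315 FPKM (1.72 ± 0.45 SE, limma adjusted p = 0.0373). For none of these did the genotypes overlap at day 6, and as with Zbp1 the first Pcgf5-/- sample was well above the second. This was so in 7 of the 7 genes tested, and the first wild-type sample of day 6 was above the second in 6 of them. These are families of similar genes, so how Cufflinks divided shared fragments makes single values uncertain, as for Ifit3 and its close copy Ifit3b. The promoters of Gbp2 and Igtp held 1 ISRE core each, shown here for comparison with the lines above.
Gbp2, chr3:142620589-142620628, plus strand: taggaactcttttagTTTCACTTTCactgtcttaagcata
Igtp, chr11:58199507-58199546, plus strand: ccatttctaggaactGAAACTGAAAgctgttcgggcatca

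Over the other interferon genes with a promoter window, 14 of 32 called higher at day 6 held the ISRE core (43.8%), as did 9 of 34 tested and not called higher (26.5%). The GAS core was in 7 of 32 (21.9%) and 11 of 34 (32.4%). These shares are descriptions of lists put together with earlier results of the data known.

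Genes of MHC class I antigen presentation, by which cells show peptides to T cells, were higher in 6 of 9 tested, with a median log2 difference of 1.27, where 9.57% of all genes were higher. Leaving out single samples of day 6 gave counts of 2 to 4. Of the 6, Tap2 could be tested only because of its mean in the Pcgf5-/- cells of day 6. The immunoproteasome subunit Psmb8 measured 8.74 and 6.72 FPKM in Pcgf5-/- cells, against 1.44 and 0.778 FPKM in wild type at day 6 (2.06 ± 0.24 SE, limma adjusted p = 0.00413), and did not exceed 0.384 FPKM in any sample of day 0. Its sister subunit Psmb10 measured 41.0 and 30.2 FPKM against 8.78 and 7.50 FPKM (1.99 ± 0.20 SE, limma adjusted p = 0.00377). Tapbp, or tapasin, which loads peptides onto class I molecules, measured 35.0 and 25.3 FPKM against 9.35 and 7.95 FPKM (1.68 ± 0.24 SE, limma adjusted p = 0.00692). Tap1, a peptide transporter subunit encoded between Psmb9 and Psmb8 on chromosome 17, had a log2 difference of 0.03 with a 95% interval of -0.49 to 0.56. H2-K1, a class I heavy chain, was the single one of the 81 genes called at day 0, with 20.6 and 23.0 FPKM in Pcgf5-/- cells, against 9.74 and 6.61 FPKM in wild type (1.33 ± 0.18 SE, limma adjusted p = 0.0472), and 18 of the 81 had an unadjusted p under 0.05 at that day, where 17.4% of all genes tested did. The call of H2-K1 at day 0 was lost in 9 of 14 alternative fits, among them the replicate block, with limma adjusted p from 0.0346 to 0.223 over the 14. At day 6 it measured 23.8 and 25.4 FPKM against 14.7 and 14.8 FPKM (0.70 ± 0.18 SE, limma adjusted p = 0.035).

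**Figure D4:**
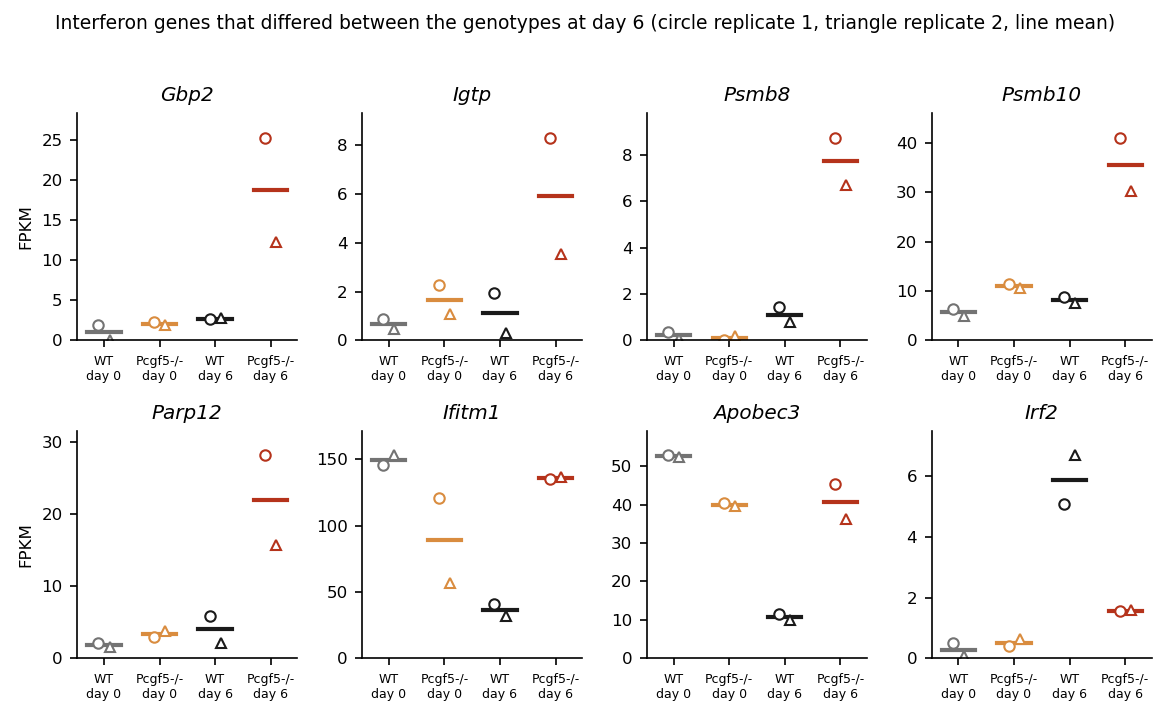
FPKM in each of the 8 samples for 8 of the interferon genes that differed between the genotypes at day 6, with a panel and a linear scale for each gene, circles for replicate 1, triangles for replicate 2 and a line at the mean of each condition. Gbp2, Igtp, Psmb8, Psmb10 and Parp12 are highest in Pcgf5-/- cells of day 6, Ifitm1 and Apobec3 are low in wild type at day 6 alone, and Irf2 rises in wild type to 5.09 and 6.69 FPKM.

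Of 31 antiviral effectors tested, 18 were higher in Pcgf5-/- cells at day 6 and none was lower, where 9.57% of all genes were higher. Of the 18, Ddx60, Oasl2 and Parp14 could be tested only because of their mean in the Pcgf5-/- cells of day 6. The count was 1 without the first Pcgf5-/- and 2 without the second wild-type sample of day 6, and 13 and 11 without the other samples of that day. Among them, Parp12, an ADP-ribosyltransferase that blocks virus replication, rose with the differentiation of Pcgf5-/- cells. It measured 28.2 and 15.7 FPKM at day 6 against 5.88 and 2.19 FPKM in wild type (2.24 ± 0.38 SE, limma adjusted p = 0.0104), and 1.59 to 3.84 FPKM in the samples of day 0. Its change over the 6 days in Pcgf5-/- cells was 2.33 ± 0.38 (SE, limma adjusted p = 0.00337). Parp12 lies on chromosome 6, whose genes were higher as a whole, with a median genotype difference of 0.37 at day 6. On chromosomes 6 and 11, 6 of the 8 effectors tested were higher, where 25.3% of all 1729 genes tested there were.

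Ifitm1, Ifitm3 and Apobec3 had another course, since they were abundant at day 0 and fell in wild type. Ifitm1, whose protein hinders the entry of viruses, measured 146 and 153 FPKM in wild type at day 0 and 40.6 and 32.0 FPKM at day 6. In Pcgf5-/- cells it measured 121 and 57.1 FPKM at day 0, then 135 and 137 FPKM at day 6. The fall in wild type was -2.02 ± 0.29 (SE, limma adjusted p = 0.00082), and the change in Pcgf5-/- cells was 0.70 ± 0.29 (SE, limma adjusted p = 0.103). Apobec3, a cytidine deaminase that restricts retroviruses, went from 52.8 and 52.5 FPKM to 11.6 and 9.95 FPKM in wild type, and from 40.3 and 39.6 FPKM to 45.3 and 36.2 FPKM in Pcgf5-/- cells. The genotype effect on Apobec3 was larger at day 6 than at day 0 by 2.21 ± 0.21 (SE, limma adjusted p = 0.0136), as was that on Ifitm1 by 2.72 ± 0.42 (SE, limma adjusted p = 0.0288). Zbp1, Gbp2, Psmb8 and Parp12, in contrast, were low in all 4 samples of day 0. Over the 81 genes, 15 rose and 20 fell with time in wild type, where limma called 50.5% of all genes (34.2% higher and 16.2% lower at day 6). In Pcgf5-/- cells 23 rose and 13 fell, where 32.3% of all genes were called (21.9% higher and 10.4% lower).

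Of the 10 other nucleic acid sensors and adaptors tested, 3 were higher in Pcgf5-/- cells at day 6, where 9.57% of all genes were, and the count was 0 without the first Pcgf5-/- or without the second wild-type sample of that day. Ddx58, the RNA sensor RIG-I, measured 11.7 and 6.62 FPKM against 3.10 and 2.37 FPKM in wild type (1.41 ± 0.26 SE, limma adjusted p = 0.0128). Aim2, a sensor of cytoplasmic DNA, measured 24.4 and 12.8 FPKM against 6.89 and 1.46 FPKM (2.09 ± 0.53 SE, limma adjusted p = 0.0328), and was at 13.4 to 32.5 FPKM in the samples of day 0. Tmem173, which encodes the adaptor STING, measured 1.17 and 1.26 FPKM against 0.232 and 0.262 FPKM (0.83 ± 0.22 SE, limma adjusted p = 0.0394).

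The genes through which ZBP1 triggers cell death did not move together. Of 7 tested, 2 were higher in Pcgf5-/- cells at day 6 and 1 lower, with a median log2 difference of 0.07, and none was called when any single sample of day 6 was left out. Over all genes tested, 9.57% were higher and 7.05% lower. Mlkl, the pore-forming executor of necroptosis, measured 2.56 and 3.08 FPKM against 0.341 and 0.687 FPKM in wild type (1.34 ± 0.29 SE, limma adjusted p = 0.0192). Mlkl could be tested only because of its mean in the Pcgf5-/- cells of day 6. Ripk3, the kinase that ZBP1 binds, measured 1.89 and 1.74 FPKM against 0.615 and 0.572 FPKM (0.82 ± 0.21 SE, limma adjusted p = 0.035), after 4.69 to 9.79 FPKM at day 0.

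Other properties of the samples moved with these differences. Pcgf5 itself measured 1.28 and 1.84 FPKM in Pcgf5-/- samples of day 0, against 5.18 and 3.63 FPKM in wild type, and 0.669 and 0.457 against 9.16 and 5.06 FPKM at day 6. At day 6 the sum of 10 mESC markers was 1285 and 1192 FPKM in Pcgf5-/- cells, against 508 and 280 FPKM in wild type, with 9 of 10 higher by limma. The sum of 10 neural progenitor markers was 244 and 246 FPKM against 604 and 546 FPKM, with 9 of 10 lower. Over all genes tested, 9.57% were higher and 7.05% lower. In these bulk samples, a change in the share of a cell type cannot be told apart from a change in RNA per cell. In wild type at day 6 the sample with more Zbp1 (2.05 FPKM) was also that with more mESC markers (508 FPKM). The Pcgf5-/- samples of day 6 had 24.0 and 8.08 FPKM of Zbp1, with closer mESC sums of 1285 and 1192 FPKM. The part of the mESC state in the interferon genes was not tested. In the samples of day 0, where mESC markers summed to 2413 to 2632 FPKM, the genes called higher at day 6 had unlike levels. Ifitm1 measured 57.1 to 153 FPKM there, Apobec3 39.6 to 52.8, Trim25 30.4 to 46.0, Oas1a 13.3 to 24.2 and Xaf1 9.70 to 29.1 FPKM, all above the wild-type samples of day 6, while Gbp2 did not exceed 2.31 FPKM and Psmb8 0.384 FPKM. Zbp1 did not exceed 0.806 FPKM. The 12 macrophage and microglia markers summed to 9.20 and 10.9 FPKM in Pcgf5-/- cells of day 6, against 6.98 and 6.31 FPKM in wild type, and Cd68 made up most of each sum (5.37 to 9.47 FPKM). The defining marker Ptprc (CD45) did not exceed 0.0116 FPKM in any sample of day 6. Itgam measured 2.09 and 0.900 FPKM against 0.716 and 0.259 FPKM in wild type, and Fcer1g 0.813 and 0.421 against 0.323 and 0.241 FPKM. Csf1r went the other way, with 0.0452 and 0 FPKM in Pcgf5-/- cells against 0.225 and 0.0788 FPKM in wild type. Tyrobp and C1qb were at 0 in both Pcgf5-/- samples and did not exceed 0.148 FPKM in wild type. Adgre1, Aif1, C1qa and Cx3cr1 were at 0 in all samples of day 6. The 8 lymphoid and dendritic markers summed to 2.07 and 1.11 FPKM in Pcgf5-/- cells of that day, against 0.825 and 0.580 FPKM in wild type. The part of such cells in the differences was not tested.

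**Figure D5:**
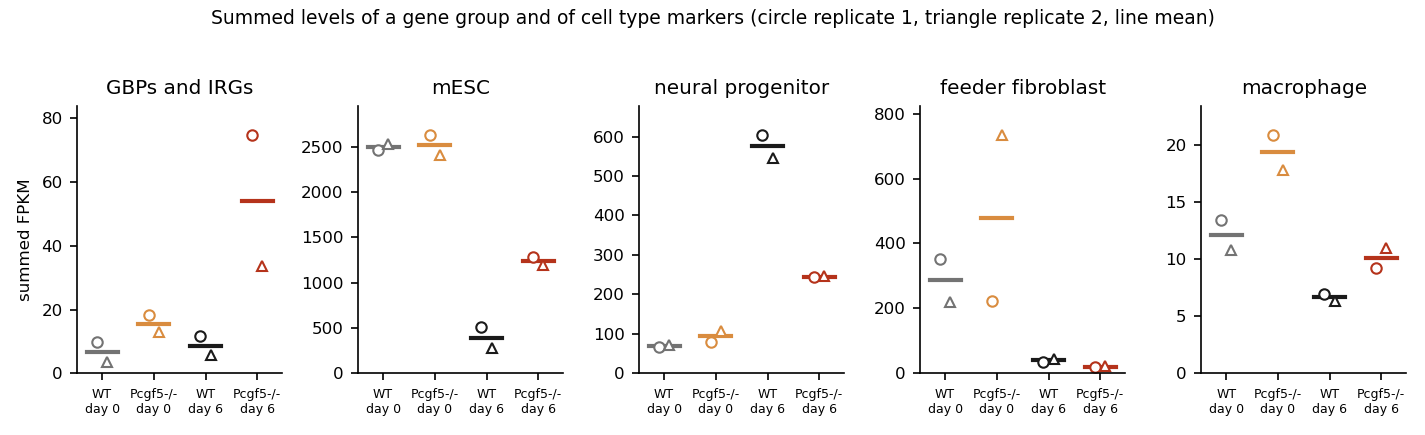
Summed FPKM in each of the 8 samples of the guanylate-binding proteins and immunity-related GTPases and of the mESC, neural progenitor, feeder fibroblast and macrophage markers, with circles for replicate 1, triangles for replicate 2 and a line at the mean of each condition. At day 6 the GTPases (74.9 and 33.6 against 11.6 and 5.66 FPKM) and the mESC markers (1285 and 1192 against 508 and 280 FPKM) are higher in Pcgf5-/- cells, neural markers are lower, and feeder markers are far below their level at day 0.

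The genes whose course over the 8 samples was most like that of Zbp1, by the Pearson correlation of log2(FPKM + 1), were Cdh9 (0.989), Fam122b (0.987), Pdzk1 (0.978), Itgam (0.976) and Optn (0.974), none of them in the interferon lists, though Itgam is also a macrophage marker. All 5 were highest in the first and next highest in the second Pcgf5-/- sample of day 6, like Zbp1. Optn, an autophagy receptor, measured 20.4 and 11.9 FPKM in these and 4.45 to 8.97 FPKM in the other samples. Among the 9 genes, the correlation with Zbp1 was 0.86 for Irf1, 0.67 for Stat2, 0.56 for Isg15 and 0.50 for Bst2, and Irf1 ranked 225 of 13161 genes. These correlations rest on 8 samples of 4 conditions and are a description.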

How the data were processed

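RNA-seq values of 8 samples, 2 in each of 4 conditions given by the sample titles, were analysed. The authors trimmed reads, removed identical duplicates, aligned pairs to mm9 with TopHat2 and computed FPKM with Cufflinks (versions 2.0.4 and 2.1.1 per the submitters' processing notes). The annotation is not given in the sources used here. The deposited FPKM are scaled for gene length and library size, so the number of fragments behind a value is unknown, but ratios of low values put the relative depth of the samples at 0.774 to 1 of the deepest. Fold changes are on the log2(FPKM + 1) scale, which understates changes of low genes. Limma (3.58.1, in R 4.3.3) was fitted once to all 8 samples, with condition means and a variance trend, over 13214 genes with a mean over 1 FPKM in a condition, with Benjamini-Hochberg adjustment at a threshold of 0.05. In simulated data of the day 6 comparison, 200 of 13214 genes were changed 2-fold or 4-fold on the scale of FPKM + 1. The fit called 45.0% of the 2-fold and 88.4% of the 4-fold changes. The simulated noise was independent between samples and few genes were changed, whereas 2197 genes were called in the data. The shares recovered need not hold for the data. With 2 samples per condition an exact permutation test could not pass the threshold and was not run. The 9 genes, the 8 interferon lists and the 5 marker lists were chosen with earlier results of these data known. Besides the 9 genes and Pcgf5, the text names genes called in a genotype comparison, the extremes of a list at day 6, defining markers and the 5 genes most like Zbp1. Irf9, Tap1, Ccl5, Cxcl10, Ifnb1, Ifng, Ifnk and Ifnz were added after their values were seen. So were the markers Csf1r, Tyrobp, C1qb, Adgre1, Aif1, C1qa and Cx3cr1. Some genes of the lists are counted but not reported here singly. Alternatives were other pseudocounts (0.1 and 5), other FPKM minimums, quantile normalization, replicate blocks, the compared groups alone, no variance trend, chromosome medians and leaving out each sample.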

Additional observations from a re-analysis of the deposited data

Results flagged for a closer look

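The effect of genotype differed between the days for 6 other interferon genes by limma's test of that difference, where 3.09% of all genes were called. It was larger at day 6 for Ifitm1 (2.72 on the log2 scale), Psmb8 (2.21), Apobec3 (2.21) and Ifitm3 (1.67), and lower at day 6 for Irf2 (-1.67) and Jak2 (-1.28), whose level rose in wild type and less so in Pcgf5-/- cells. For the receptor chain Ifnar1, both Pcgf5-/- samples lay above wild type at day 0 (6.03 and 7.07 against 5.08 and 5.43 FPKM) and below at day 6 (11.1 and 9.84 against 12.0 FPKM in both wild-type samples), a difference of -0.45 that was singled out without a test and has a limma adjusted p of 0.277.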

How the results depend on the processing

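With 2 samples per condition, calls depended on single samples. Leaving out samples in turn, the calls among the 9 genes were 0 to 2 at day 6, 1 to 2 over time in Pcgf5-/- cells, and among the other interferon genes 0 to 1 at day 0, 3 to 27 at day 6, 21 to 28 over time in Pcgf5-/- cells and 0 to 7 for the day 6 minus day 0 genotype effect. In these fits a lone sample is taken to vary like the other conditions. The number of interferon genes called at day 0 was 1, and 0 with a pseudocount of 5, no filter, quantile normalization, the compared groups alone or no variance trend. Without a filter, calls were 1 among the 9 genes and 24 among the interferon genes at day 6, and 1 for the difference between the days. Over all genes, 8.82% were called at day 6 and 0.435% for the difference between the days in that fit. With a minimum of 5 FPKM, 21 interferon genes were called over time in Pcgf5-/- cells, where 31.3% of all genes were. With quantile normalization, 0 of the 9 were called over time in wild type and 1 for the difference between the days, where 46.9% and 4.03% of all genes were.

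The replicate numbers are not said to mark shared cultures, and the differences between replicates correlated across genes at 0.39 for the conditions of day 6, 0.10 for those of day 0 and -0.08 to -0.02 across days. A replicate block gave 39 interferon genes called at day 6, 0 at day 0 and 7 for the difference between the days. Over all genes tested, 18.2%, 0.00757% and 3.25% were called in that fit. A block for each day gave 40, 4 and 19 interferon genes, and 1 of the 9 genes at day 0 and 1 for the difference between the days. The calls over all genes rose as well, to 24.5% at day 6, 2.13% at day 0 and 8.83% for the difference between the days.

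Some small changes that were not called turned their sign. The change of Zbp1 in wild type was -0.0098 and that of Isg15 -0.17 with quantile normalization, and the difference of Irf1 at day 0 was -0.28 less its chromosome's median. Leaving out single samples, the change in wild type ranged from -0.27 to 0.93 for Zbp1 and from -0.14 to 0.36 for Bst2, that in Pcgf5-/- cells from -0.30 to 1.03 for Isg15 and from -0.39 to 0.63 for Bst2, and the difference between the days from -0.47 to 0.86 for Isg15, -0.11 to 0.22 for Stat2 and -0.50 to 0.52 for Bst2. Over single genes, 773 of 1023 alternative values stayed the same, 212 lost the call, 3 gained it, 16 moved and 19 turned sign. Staying the same meant keeping direction and call. For Zbp1 outside the day 0 comparison and for values less a chromosome median, no call was used. Those values stayed the same if they shifted by less than the SE, and otherwise counted as moved. The cause was not tested.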
